A study of Mus musculus with 24 samples.

Results

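Transcript levels were compared between MuRF1 Tg+ and wild-type mouse hearts after ischemia-reperfusion (I/R), in the tissue above the tie on the left anterior descending coronary artery (LAD). The comparison takes the 3 arrays titled MuRF1 Tg+ I/R above LAD and the 3 titled Wildtype I/R above LAD, which are 6 of the 24 arrays of the series, and covers every measured gene. Both groups were adult mice of 12 to 16 weeks, and both had the artery tied and then released. The labels describe 3 biological replicates a group. Sham-operated hearts of both genotypes (6 arrays above the site) and the tissue below the tie of the same I/R hearts (6 arrays) are used here only to show where the comparison differs from them. Each array carried 1 heart piece in Cy5 against a Cy3 pool of whole C57BL/6 pups of postnatal day 1, so a level is a log2 ratio of heart over pup pool. A protocol label names Cy3 for the heart RNA while the label fields name Cy5. Ratios were therefore read as Cy5 over Cy3, and a dye effect on a probe cancels in the difference between arrays. The promoter that drives the transgene, its founder line, the strain of the adult mice and the time from release to harvest are not stated in the labels.

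MuRF1, encoded by Trim63, is a RING-type ubiquitin ligase of striated muscle that binds titin at the M-line of the sarcomere and marks contractile proteins for the proteasome. It is known for its part in muscle wasting, and in the heart it has been linked to the trimming of sarcomere mass, to fuel use and to stress signalling through the AP-1 factor JUN. In I/R, the tissue downstream of a coronary tie loses and regains its blood supply. The tissue above the tie keeps its own supply and shares the mechanical load and the inflammatory milieu of the injured heart.

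The 6 arrays were not of equal quality. The share of Cy5 spots well above background was 24.2%, 15.7% and 37.8% on wild-type arrays 1, 2 and 3, and 37.9%, 31.3% and 29.2% on Tg+ arrays 1, 2 and 3, against 34.6% to 43.3% on sham arrays. Wild-type arrays 1 and 2 are called the weak arrays below. On the first principal component of the 6 arrays, with 51.8% of the variance, the weak arrays scored -10.6 and -32.9 and wild-type array 3 scored 15.6, while Tg+ arrays scored 4.7 to 13.9. Wild-type array 3 correlated with Tg+ array 1 at r = 0.965 and with the weak arrays at 0.921 and 0.814, across features of single arrays. No slide held both genotypes of this condition: wild-type arrays lay on slides 1 and 7 and Tg+ arrays on slides 4, 5 and 6. With slide as a fixed block, the groups are therefore compared only through arrays of other groups. Wherever a result is given without the weak arrays, 1 wild-type array is left and its spread is taken from the other groups. Precision is limited by having 3 arrays a group. The standard errors below rest on 1 spread per feature shared by all 24 arrays, not on the spread of these 6. The median within-group standard deviation above the tie was 0.169 in wild type and 0.123 in Tg+ after I/R. In sham hearts above the site it was 0.0998 in wild type and 0.0814 in Tg+.

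Trim63 itself was examined first. Its bright probe, well above background on all 6 arrays, read 1.49, 1.49 and 1.94 in wild type and 2.28, 1.43 and 1.49 in Tg+ hearts. The 2 groups overlapped, and Tg+ array 1 alone lay within the sham range of 2.25 to 2.48. The Tg+ minus wild-type difference was 0.09 ± 0.39 (standard error of the fit; limma adjusted p = 0.937), and it was -0.20 without the weak arrays. A second, dimmer probe differed by 0.07. The labels do not say whether either probe reads the transgene, and the values therefore do not check the genotype labels.

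In all, 75 of 11419 features differed between Tg+ and wild type after I/R above the tie (limma with all 24 arrays, Benjamini-Hochberg adjusted p under 0.05), which is 0.657% of those tested. Tg+ was higher for 29 of them (0.254%) and lower for 46 (0.403%). The increases had a median log2 difference of 0.59 (0.37 to 1.72) and the decreases a median of -0.54 (-1.15 to -0.29), beside a median of -0.02 over all 11419 features. At an unadjusted p under 0.05 there were 1605 features, or 14.1%. The Tg+ and wild-type arrays did not overlap for any of the 75, and over all features with 6 values they did not overlap for 14.8%. Of the 75, 61 stood well above background in Cy5 on all 6 arrays, 1 on no wild-type array and 1 on no Tg+ array. In sham hearts above the site the same 75 features differed by -0.31 to 0.33 between genotypes, and none passed. Of all 11418 features tested there 4 passed, so none among 75 says little about them. The 75 were also chosen for their difference after I/R, so a smaller one in sham follows in part from that choice. With 3 arrays a group the count rested on single arrays: it was 1 without wild-type array 1, 8 without wild-type array 2, 504 without wild-type array 3, 154 without Tg+ array 1, 5 without Tg+ array 2 and 0 without Tg+ array 3. Without both weak arrays it was 11, of which 1 was among the 75. For the 74 of the 75 with a value there the direction could not turn, since the groups did not overlap. Of these 74, 20 were smaller by over 1.5 times. With slide as a fixed block it was 67, with 49 higher and 18 lower, and 19 of the 67 were among the 75. A fit of the 6 arrays alone, which estimates the spread from them only, called 0 features, with 1059 at an unadjusted p under 0.05.

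**Figure D1:**
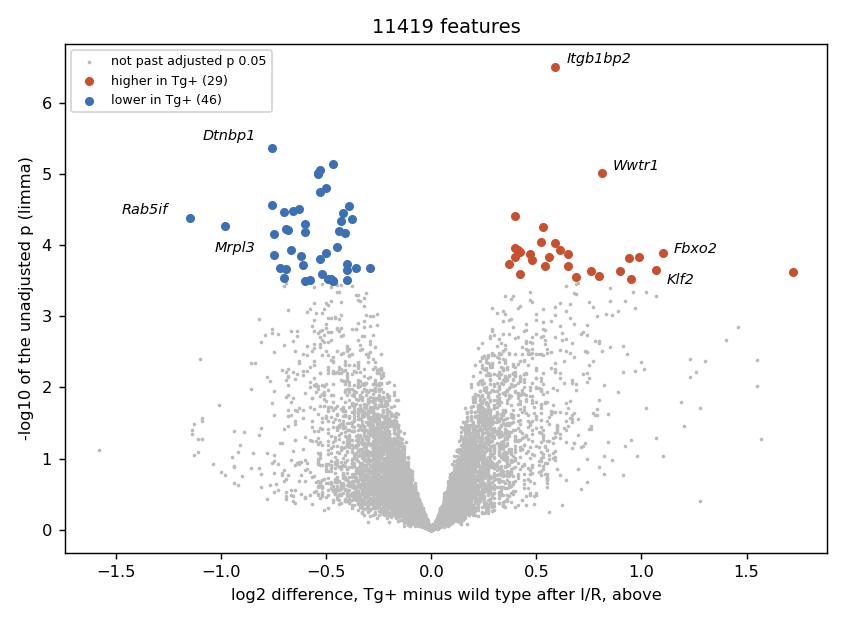
Difference in log2 ratio between Tg+ and wild type after I/R above the tie (x axis) against -log10 of the unadjusted limma p (y axis), 1 point per feature of 11419. The 29 red points (higher in Tg+) and 46 blue points (lower) passed an adjusted p of 0.05; Itgb1bp2 stands highest, at a difference of 0.59.

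The clearest difference was in Itgb1bp2, which encodes melusin, a muscle chaperone that binds the tail of beta 1 integrin at the costamere and is known for protecting the heart under pressure load. Its log2 ratio was -0.67, -0.71 and -0.83 in wild type and -0.18, -0.20 and -0.06 in Tg+. All 3 Tg+ hearts lay above all 3 wild-type hearts and within the sham range of -0.23 to 0.06. The wild-type hearts lay below that range. The difference was 0.59 ± 0.08, or 1.50-fold (adjusted p = 0.00361), the smallest adjusted p of the comparison. It was the 1 call of the 75 that also passed without the weak arrays (0.68, adjusted p = 0.0202), and it passed with slide as a block (0.60, adjusted p = 0.0447). Leaving out Tg+ array 3 ended the call (adjusted p = 0.0561). In sham hearts the genotypes differed by 0.14, and the difference between I/R and sham was not past the threshold (0.44, adjusted p = 0.280).

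Wwtr1, which encodes TAZ, a transcriptional coactivator that the Hippo pathway holds out of the nucleus, showed a similar layout. It read -1.06, -0.61 and -0.50 in wild type and 0.19, 0.04 and 0.04 in Tg+, with a sham range of -0.11 to 0.33. The wild-type hearts lay below the sham arrays and the Tg+ hearts within their range. The difference was 0.81 ± 0.14 (adjusted p = 0.0166). It was 0.59 (adjusted p = 0.410) without the weak arrays and 1.16 (adjusted p = 0.0323) with slide as a block, and a second probe gave 0.25.

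The largest increase with a gene symbol was in Fbxo2, an F-box protein that hands glycoproteins to an SCF ubiquitin ligase. Wild-type hearts read -0.57, -0.54 and -0.61, and Tg+ hearts -0.03, 0.96 and 0.65. Tg+ array 1 lay inside the sham range of -0.37 to 0.19 and arrays 2 and 3 above it, with no overlap with wild type. The difference was 1.10 ± 0.23, or 2.15-fold (adjusted p = 0.0377). A second Fbxo2 probe gave 0.17, so the size depends on the probe.

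The same order of Tg+ arrays recurred. Among the 29 increases, Tg+ array 1 was the lowest of the 3 Tg+ arrays for 19, array 2 for 5 and array 3 for 5, against 4364, 2890 and 4146 over all features. For Tmem165, a Golgi membrane protein needed for glycosylation, the Tg+ values were 0.08, 0.81 and 0.89 and the wild-type values -0.27, -0.22 and -0.14, with a difference of 0.80 ± 0.18 (adjusted p = 0.0476). A second Tmem165 probe went the other way (-0.21). For 9530080O11Rik, a RIKEN transcript, Tg+ read 0.15, 0.87 and 0.97 and wild type -0.41, -0.18 and -0.27 (0.95 ± 0.21, adjusted p = 0.0489). In both genes Tg+ array 1 lay between wild type and the other two Tg+ arrays.

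Among the other increases, 3 genes act on actin or on kinase anchoring. Akap13, an anchoring protein for protein kinase A, was even across Tg+ at 0.89, 0.85 and 0.88, above wild type at 0.10, -0.00684 and 0.44. Its difference was 0.69 ± 0.16 (adjusted p = 0.0484), with 0.40 on a second probe and 0.44 without the weak arrays. Mical2, an enzyme that oxidises actin and feeds the SRF pathway, read -0.16, -0.08 and 0.12 in wild type and 0.45, 0.56 and 0.70 in Tg+ (0.61 ± 0.13, adjusted p = 0.0377). Synpo, the actin-bundling protein synaptopodin, read -0.07, -0.05 and 0.07 against 0.23, 0.62 and 0.80 (0.56 ± 0.12, adjusted p = 0.0377). The groups did not overlap in any of them. Mical2 was well above background on 1 wild-type array only, and Akap13 and Synpo on 2. The other 2 Synpo probes gave -0.01 and 0.39. Fmo2, a flavin monooxygenase, was higher by 0.65 ± 0.14 (adjusted p = 0.0377), also with 1 wild-type array above background, and by 0.36 (adjusted p = 0.857) without the weak arrays. The RIKEN gene 1110059G10Rik was higher by 0.76 ± 0.17 (adjusted p = 0.0432).

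**Figure D2:**
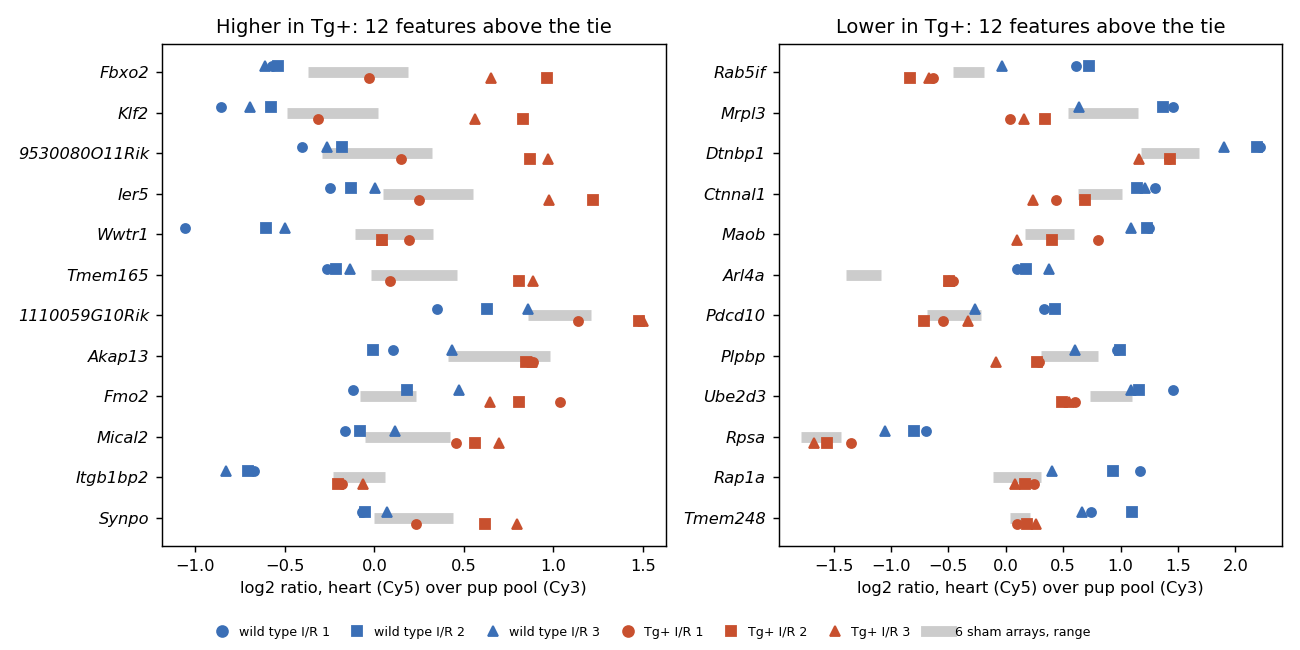
Log2 ratio of heart over pup pool on each array (x axis) for the 12 largest increases (left) and the 12 largest decreases (right) with a gene symbol; blue, wild type I/R; red, Tg+ I/R; grey bars, range of the 6 sham arrays above the site. Itgb1bp2 and Wwtr1 in Tg+ lie in the sham range while wild type lies below it. Tg+ array 1 sits left of the other Tg+ arrays in Fbxo2, Klf2, 9530080O11Rik, Ier5 and Tmem165.

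The largest decrease was in Rab5if, which encodes a small protein named for its binding to the endosomal GTPase Rab5. It read 0.61, 0.72 and -0.03 in wild type and -0.64, -0.84 and -0.67 in Tg+ hearts. The weak arrays were the higher wild-type ones, and array 3 still lay above all Tg+ arrays. The difference was -1.15 ± 0.22 (adjusted p = 0.0272), and -0.68 (adjusted p = 0.737) without the weak arrays. Mrpl3, a protein of the large subunit of the mitochondrial ribosome, had the same layout, with 1.46, 1.37 and 0.64 in wild type and 0.04, 0.34 and 0.16 in Tg+. It was lower by 0.98 on the log2 scale (-0.98 ± 0.19, adjusted p = 0.0282), and the difference was -0.46 without the weak arrays. Other Mrpl3 probes gave -0.42 and -0.36.

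Other decreases were as large with wild-type array 3 alone as with all 3. Ctnnal1, alpha-catulin, a relative of the catenins that link adhesion to the cytoskeleton, read 1.30, 1.14 and 1.21 in wild type and 0.44, 0.69 and 0.24 in Tg+ hearts. The difference was -0.76 ± 0.14 (adjusted p = 0.0272), and -0.75 (adjusted p = 0.373) without the weak arrays. Arl4a, an Arf-like GTPase, read 0.10, 0.18 and 0.37 in wild type and -0.46, -0.49 and -0.50 in Tg+. Both groups lay above the sham range of -1.39 to -1.09. The difference was -0.70 ± 0.13 (adjusted p = 0.0272), with -0.20 on a second probe and -0.86 without the weak arrays. Neither call passed without those arrays.

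Dtnbp1, dysbindin, part of a complex that sorts cargo to lysosome-related organelles, was high in every heart. It read 2.21, 2.19 and 1.90 in wild type and 1.42, 1.43 and 1.16 in Tg+, with sham at 1.18 to 1.68. Wild type lay above the sham range and Tg+ in or just under it. The difference was -0.76 ± 0.12 (adjusted p = 0.0166), and its other 2 probes gave -0.21 and -0.15. Maob, the outer mitochondrial membrane enzyme that breaks down amines with release of hydrogen peroxide, read 1.25, 1.23 and 1.09 in wild type and 0.80, 0.40 and 0.10 in Tg+ hearts. The difference was -0.75 ± 0.16 (adjusted p = 0.0377). Tg+ array 1 was the Tg+ value nearest to wild type here too.

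Ube2d3, a ubiquitin-conjugating (E2) enzyme that serves many RING ligases, read 1.46, 1.16 and 1.09 in wild type and 0.60, 0.49 and 0.55 in Tg+ (-0.69 ± 0.13, adjusted p = 0.0282). The groups were well apart on this probe, but 3 other Ube2d3 probes gave 0.04, -0.07 and -0.28. The adhesion GTPase Rap1a read 1.17, 0.94 and 0.40 against 0.25, 0.17 and 0.08 (-0.67 ± 0.14, adjusted p = 0.0377), with -0.24 (adjusted p = 0.976) without the weak arrays and 0.07 on its other probe. Plpbp, which handles pyridoxal phosphate, was lower by 0.69 (-0.69 ± 0.15, adjusted p = 0.0432), with -0.44 (adjusted p = 0.862) without the weak arrays and 0.01 and -0.08 on its other probes. Rpsa, a protein of the small ribosomal subunit that also acts as a laminin receptor, was lower in Tg+ (-0.68 ± 0.13, adjusted p = 0.0282), and since Rpsa has many processed copies in the genome the source of its signal is uncertain. Pdcd10, an adaptor of the vessel wall, differed by -0.70 ± 0.16 (adjusted p = 0.0489), with -0.26 without the weak arrays and -0.21 on its other probe. The membrane protein Tmem248 differed by -0.66 ± 0.12 (adjusted p = 0.0272), with -0.17 on its other probe.

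Some of the remaining calls are of interest for the heart and were picked after their values were seen. For these and the calls of the next paragraph only the brightest probe was read, and any other probes were not compared. Fndc5, the membrane precursor of the muscle hormone irisin, was high everywhere, at 3.37, 3.31 and 3.10 in wild type and 2.70, 2.77 and 2.51 in Tg+ (-0.60 ± 0.12, adjusted p = 0.0282). Sham hearts lay at 3.25 to 3.59, and all 3 Tg+ hearts and wild-type array 3 lay below that range. Vegfb, a growth factor of the coronary endothelium, read 2.86, 2.94 and 2.45 against 2.26, 2.20 and 2.07 (-0.58 ± 0.13, adjusted p = 0.0489), with -0.27 (adjusted p = 0.993) without the weak arrays. Ppp3cb, the beta catalytic subunit of calcineurin, differed by -0.40 ± 0.09 (adjusted p = 0.0432), and by -0.21 (adjusted p = 0.927) without the weak arrays.

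Single small GTPases were called in both directions, and they too were picked after their values were seen. Lower in Tg+ were Rap1b (-0.38 ± 0.07, adjusted p = 0.0272), Rab6a (-0.45 ± 0.09, adjusted p = 0.0377), Rab10 (-0.48 ± 0.11, adjusted p = 0.0489) and Rab35 (-0.44 ± 0.09, adjusted p = 0.0282). Higher was Rras (0.40 ± 0.09, adjusted p = 0.0377). Without the weak arrays Rab35 was at -0.24 (adjusted p = 0.813) and Rras at 0.20 (adjusted p = 0.927). Emc10, a subunit of the endoplasmic reticulum insertion complex, read 0.53, 0.47 and 0.55 in wild type and 0.17, -0.02 and -0.00703 in Tg+ (-0.47 ± 0.08, adjusted p = 0.0166), and was -0.50 (adjusted p = 0.143) without the weak arrays. Snx12, a sorting nexin of endosomes, differed by -0.53 ± 0.09 (adjusted p = 0.0166), and by -0.60 (adjusted p = 0.0642) without the weak arrays. The largest increase of all 75 was in an Ensembl transcript without a gene symbol in the files, ENSMUST00000006171, at 0.78, 0.45 and 1.96 in wild type and 3.00, 1.99 and 3.36 in Tg+ (1.72 ± 0.38, adjusted p = 0.0443), with 0.82 (adjusted p = 0.976) without the weak arrays. Its closest arrays were wild-type array 3 and Tg+ array 2. Leaving out an array ended its call in 5 of 6 fits, and the calls of the 75 ended in 1 to 5 of them.

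Gene lists of heart pathways were then described by counts and medians beside those of all features (45.2% higher in Tg+, median -0.02). At an unadjusted limma p under 0.05, 802 of all 11419 features were higher in Tg+ and 803 lower, together 14.1%. Immediate early genes, the first transcripts made when a cell is stimulated, include the AP-1 subunits through which MuRF1 has been linked to stress signalling. Of 19 measured, 2 rose, 0 fell and 17 did not pass. In all, 16 of the 19 had a higher mean in Tg+ and 7 had an unadjusted p under 0.05, all upward, and the median difference was 0.30. The mean level of the list was -0.05, 0.14 and 0.09 on the wild-type arrays and 0.00, 0.78 and 0.39 on the Tg+ arrays, against -0.43 to -0.16 in sham. Tg+ array 1 lay among the wild-type arrays, and for 15 of the 19 genes it was the lowest Tg+ array. The median was 0.10 without Tg+ array 2, 0.50 without Tg+ array 1 and 0.33 without the weak arrays.

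**Figure D3:**
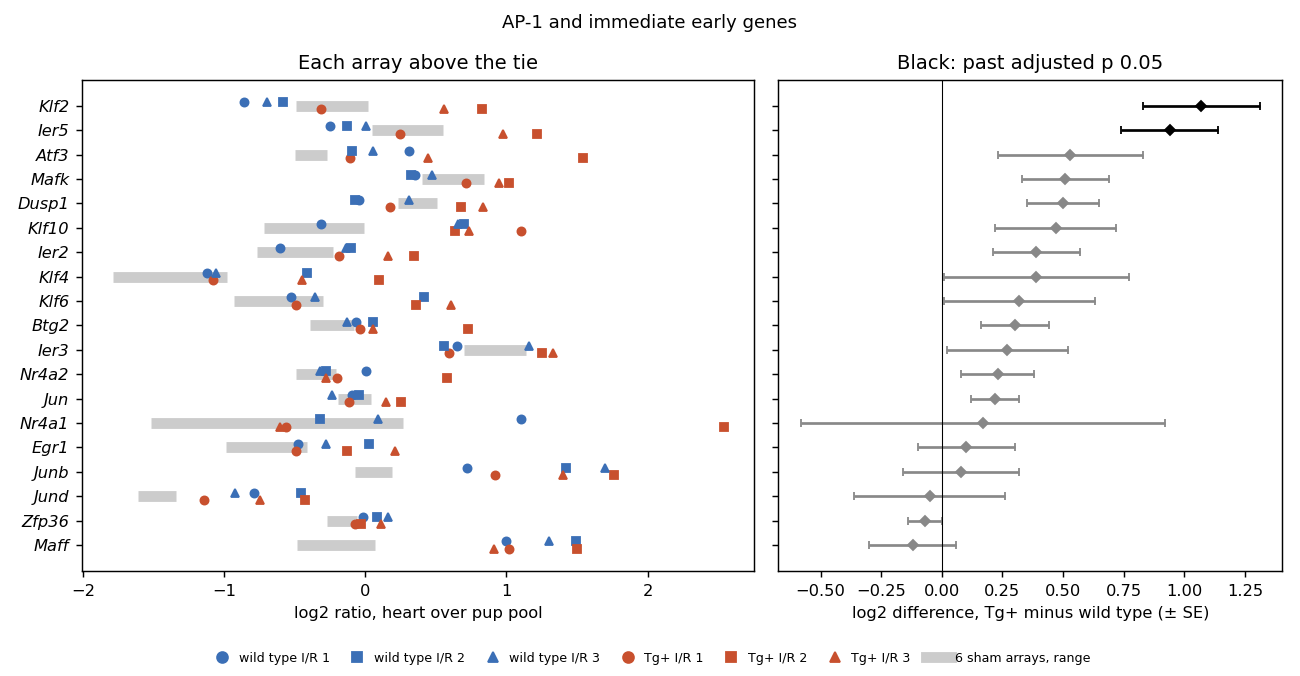
Immediate early genes: left, log2 ratio of heart over pup pool on each array above the tie, with the range of the 6 sham arrays in grey; right, the log2 difference between Tg+ and wild type with its standard error, black where the adjusted p was under 0.05. Klf2 (1.07) and Ier5 (0.94) passed, and 16 of 19 points lie right of 0.

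The members that rose were Klf2 and Ier5. Klf2, a transcription factor that blood flow induces in endothelium, read -0.86, -0.58 and -0.70 in wild type and -0.32, 0.83 and 0.56 in Tg+ hearts. The wild-type hearts lay below the sham range of -0.49 to 0.02, Tg+ array 1 within it and Tg+ arrays 2 and 3 above it. The difference was 1.07 ± 0.24, or 2.10-fold (adjusted p = 0.0432), with 0.52 on a second probe. Ier5, a nuclear protein induced by growth factors and heat, read -0.25, -0.13 and 0.00295 in wild type and 0.25, 1.22 and 0.97 in Tg+ (0.94 ± 0.20, adjusted p = 0.0377). Without the weak arrays the differences were 1.05 (adjusted p = 0.532) and 0.81 (adjusted p = 0.631). The AP-1 partner Mafk differed by 0.51 ± 0.18 (adjusted p = 0.191) and Dusp1, the phosphatase that switches off p38 and JNK, by 0.50 ± 0.15 (adjusted p = 0.126). Of the AP-1 subunits themselves, Jun differed by 0.22 ± 0.10 (adjusted p = 0.328), Junb by 0.08 ± 0.24 (adjusted p = 0.911) and Jund by -0.05 ± 0.31 (adjusted p = 0.960), with overlapping groups in all 3. No probe of a FOS gene entered the test.

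The list closest to the transgene holds MuRF1, its relatives and other muscle ubiquitin ligases. Of 27 measured, 0 passed, 15 were higher and 12 lower, and the median difference was 0.08. It was -0.03 without the weak arrays and -0.02 without Tg+ array 1. The smallest p belonged to Mdm2, the ligase that targets p53, at 0.52, 0.40 and 0.26 in wild type and 0.08, 0.03 and -0.00915 in Tg+ (-0.36 ± 0.09, adjusted p = 0.0593). Fbxo31, an F-box protein of the cell cycle, read 2.52, 2.63 and 2.07 against 1.85, 1.32 and 1.52 (-0.84 ± 0.26, adjusted p = 0.142). Neither group overlapped with the other in these genes, and neither gene passed. Of 39 proteasome subunits and activators 0 passed, with a median of -0.04 (0.09 without the weak arrays) and 18 higher against 21 lower. Psma1 and Psma6, alpha-ring subunits of the proteasome core, had the smallest p, at -0.42 ± 0.14 (adjusted p = 0.157) and -0.54 ± 0.19 (adjusted p = 0.185), and at -0.07 and -0.19 without the weak arrays.

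Of 21 thick and thin filament genes of the sarcomere 0 passed, with 13 higher and 8 lower in Tg+ and a median of 0.14, which was 0.03 without wild-type array 3. Ttn, the giant spring that MuRF1 binds, read -0.54, 0.47 and 0.86 in wild type and 1.05, 1.81 and 1.82 in Tg+ hearts. The groups did not overlap. All Tg+ hearts and wild-type array 3 lay within the sham range of 0.55 to 2.33, and wild-type arrays 1 and 2 below it. The difference was 1.30 ± 0.40 (adjusted p = 0.140), and 8 further Ttn probes gave 0.26 to 1.34, all higher in Tg+. Actc1, cardiac alpha-actin, read 0.19, -0.44 and 0.11 against 0.67, 0.98 and 1.13 (0.97 ± 0.31, adjusted p = 0.158). All I/R hearts were below the sham range of 1.54 to 2.30 for Actc1, wild type further than Tg+.

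Z-disc and LIM domain proteins, which anchor thin filaments and sense stretch, had 20 of 23 members higher and 3 lower, with 0 past the threshold and 6 at an unadjusted p under 0.05, all upward. Their median was 0.33, 0.42 without the weak arrays and 0.16 with slide as a block. The list mean was 0.98, 1.22 and 1.00 in wild type and 1.13, 1.40 and 1.59 in Tg+, so Tg+ array 1 lay within the wild-type values. Xirp1, which repairs and organises intercalated discs, read 0.08, 0.49 and 0.32 against 0.67, 1.01 and 1.61 (0.80 ± 0.23, adjusted p = 0.109). Pdlim1, a PDZ and LIM protein that binds alpha-actinin, differed by 0.35 ± 0.10 (adjusted p = 0.124), with no overlap. Targets of SRF, the factor that responds to actin assembly, had 14 of 19 higher and a median of 0.36, with 0 past the threshold. That median was 0.05 without the weak arrays. The SRF target Actg2, a smooth muscle actin, differed by 0.62 ± 0.17 (adjusted p = 0.0991).

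Of 22 calcium handling genes 0 passed, 12 were higher and 10 lower, and the median was 0.08. It was -0.22 without the weak arrays, -0.15 without wild-type array 2 and 0.31 without wild-type array 3. The sarcoplasmic reticulum proteins Trdn and Casq2, which hold the calcium release channel and the stored calcium, read higher in Tg+ without overlap. Trdn read 1.10, 1.12 and 1.33 in wild type and 1.93, 1.98 and 1.73 in Tg+ (0.69 ± 0.17, adjusted p = 0.0591). Tg+ arrays 1 and 2 lay within the sham range of 1.91 to 2.24, and Tg+ array 3 and all wild-type arrays below it. A second Trdn probe went the other way (-0.42). Casq2 read 0.63, 0.32 and 0.88 against 1.16, 1.26 and 1.61 (0.74 ± 0.24, adjusted p = 0.159).

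Respiratory chain and ATP synthase genes, which make most of the ATP of the heart, were lower in Tg+ for 37 of 41 members and higher for 4. None passed, 8 downward and 1 upward had an unadjusted p under 0.05, and the median was -0.45. The list mean was 2.01, 2.48 and 1.61 on the wild-type arrays and 1.48, 1.74 and 1.64 on the Tg+ arrays, with sham at 1.68 to 1.93. Only the weak arrays lay above the sham range, and wild-type array 3 lay within the Tg+ values. The median was 0.05 without the weak arrays, -0.17 without wild-type array 2 and -0.70 without wild-type array 3. Ndufb5, a complex I subunit, read 1.79, 1.54 and 1.18 in wild type and 1.01, 0.69 and 0.63 in Tg+ (-0.73 ± 0.20, adjusted p = 0.100). Uqcrfs1, the Rieske iron-sulfur protein of complex III, read 2.50, 3.00 and 1.92 against 1.53, 1.72 and 1.75 (-0.81 ± 0.23, adjusted p = 0.112). Without the weak arrays these differences were -0.41 and -0.26.

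The strength of the Cy5 channel moved with this list. Wild-type array 2 had the lowest Cy5 share (15.7%) and the highest mean of the respiratory chain list, and wild-type array 1 the next of both (24.2%). Tg+ array 1 and wild-type array 3, alike in Cy5 share (37.9% and 37.8%), had list means of 1.48 and 1.61. Its part in the result was not tested. Of the 43 cytosolic ribosomal proteins on the list 35 were lower and 0 passed, with a median of -0.33, and -0.05 without the weak arrays. Rpsa, called above, is not on this list. The list mean was -0.44, 0.12 and -0.62 in wild type and -0.87, -0.56 and -0.54 in Tg+, all above the sham range of -1.37 to -1.10. Rpl10a differed by -0.28 ± 0.11 (adjusted p = 0.249).

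Enzymes of the TCA cycle, pyruvate and ketone use had 11 higher and 18 lower of 29, 0 passed and a median of -0.19. Sucla2, a subunit of succinyl-CoA ligase, read 0.92, 1.22 and 0.58 against 0.45, 0.28 and 0.30 (-0.56 ± 0.19, adjusted p = 0.168). Mpc1, a subunit of the mitochondrial pyruvate carrier, read 2.88, 2.78 and 1.70 against 1.81, 1.86 and 1.69 (-0.67 ± 0.25, adjusted p = 0.232), and the difference was 0.08 without the weak arrays. Fatty acid oxidation (24 measured, 0 passed, median -0.02, and 0.14 without the weak arrays) and PPAR alpha targets (29 measured, 0 passed, median 0.13) held the same leading gene, Cpt1b, the transferase that admits fatty acids to mitochondria. Cpt1b read 1.39, 1.94 and 1.68 in wild type and 2.09, 2.49 and 2.16 in Tg+ (0.57 ± 0.15, adjusted p = 0.0836), without overlap. A second probe gave 0.65, and the value was 0.56 without the weak arrays. Etfa, which passes electrons from fatty acid oxidation to the respiratory chain, differed by -0.69 ± 0.25 (adjusted p = 0.216; wild-type array 3 was outlier-flagged and dropped), and the PPAR alpha target Acot2 by 0.50 ± 0.26 (adjusted p = 0.397).

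**Figure D4:**
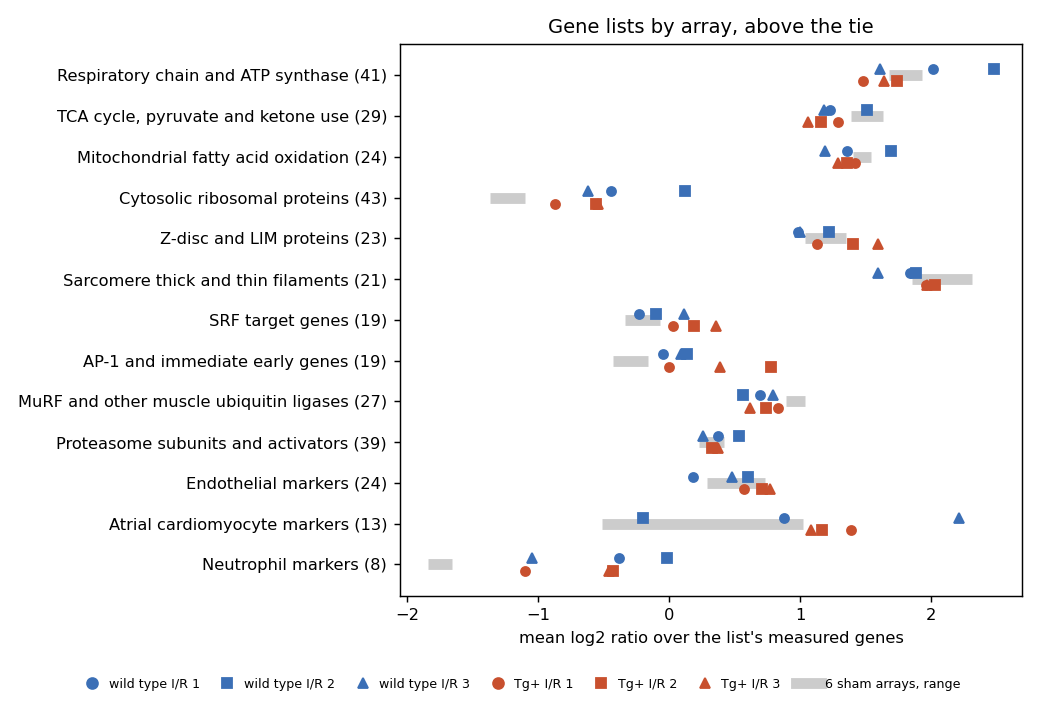
Mean log2 ratio over the measured genes of each list (number in brackets) on each array above the tie; blue, wild type I/R; red, Tg+ I/R; grey bars, range of the 6 sham arrays. The respiratory chain list is highest on wild-type arrays 1 (2.01) and 2 (2.48), and the immediate early list on Tg+ arrays 2 (0.78) and 3 (0.39).

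Stress and cell death lists showed no call. Of 24 heat shock proteins and chaperones 0 passed and the median was 0.01 (-0.04 without the weak arrays), with Hspe1, the mitochondrial co-chaperonin, at -0.57 ± 0.17 (adjusted p = 0.125) and Dnaja1 at -0.33 ± 0.14 (adjusted p = 0.268). Of 28 Bcl2 family and cell death genes 0 passed and the median was 0.06. Tnfrsf12a, the TWEAK receptor, differed by 0.68 ± 0.34 (adjusted p = 0.381) and the survival gene Bcl2l1 by 0.20 ± 0.10 (adjusted p = 0.390). Natriuretic peptides and fetal stress genes (14 measured, 0 passed, median 0.03) held Nppb, the B-type natriuretic peptide of stretched ventricle, at 4.83, 3.99 and 3.68 in wild type and 4.05, 6.09 and 6.21 in Tg+ (1.28 ± 0.50, adjusted p = 0.252). Tg+ array 1 again lay within wild type for Nppb. Gadd45a, a DNA damage gene of the same list, differed by -0.27 ± 0.13 (adjusted p = 0.354).

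Inflammatory cytokine and adhesion genes (24 measured) had 0 past the threshold and a median of -0.02, which was -0.24 without the weak arrays. Glucocorticoid response genes (19 measured) had 0 and a median of 0.11, which was 0.01 without the weak arrays. Cebpb, a factor of the acute phase that is on both lists, read 1.62, 1.86 and 1.81 in wild type and 0.94, 1.48 and 0.60 in Tg+, with sham at 0.09 to 0.34. All I/R hearts were above sham, wild type the more so, and the difference was -0.76 ± 0.21 (adjusted p = 0.0951). It was -0.81 without the weak arrays, but a second probe gave 0.11. Ptx3, a long pentraxin, differed by -0.30 ± 0.12 (adjusted p = 0.273), and the clock gene Per1, which glucocorticoids induce, by 0.37 ± 0.10 (adjusted p = 0.100).

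Marker lists for cells other than cardiomyocytes, and for both kinds of cardiomyocyte, were examined because a difference in a bulk piece cannot tell fewer cells of a type from less RNA per cell. Ventricular cardiomyocyte markers were high on every array (list means 1.51 to 1.88 after I/R), as the labelled tissue would have them. Of these 10 markers 0 passed, with a median of 0.11. Myl2, the ventricular myosin light chain, differed by -1.14 ± 0.52 (adjusted p = 0.340), with wild-type array 3 and Tg+ array 2 dropped as outlier-flagged. Myh7, the slow myosin of the fetal ventricle, read -0.43, 0.20 and 1.49 in wild type and 3.01, 2.62 and 0.33 in Tg+ (1.57 ± 0.76, adjusted p = 0.365).

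Atrial markers differed more among the wild-type arrays than between genotypes. Their list mean (13 measured, 0 passed, median difference 0.04, and -0.83 without the weak arrays) was 0.88, -0.20 and 2.21 in wild type and 1.39, 1.17 and 1.08 in Tg+, with sham at -0.51 to 1.02. Nppa, the atrial natriuretic peptide, read 4.04, 1.43 and 4.65 in wild type and 3.97, 4.74 and 4.73 in Tg+ (1.10 ± 0.63, adjusted p = 0.458). Pam, the enzyme that amidates peptides in atrial granules, read 0.97, 0.48 and 2.99 against 2.31, 2.30 and 2.28 (0.82 ± 0.46, adjusted p = 0.455). The wild-type values span the Tg+ values in Pam, and without the weak arrays the differences were -0.18 for Nppa and -0.69 for Pam. The part of atrial tissue in the genotype differences was not tested.

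Endothelial markers had 20 of 24 members higher in Tg+ and 4 lower, 0 past the threshold, 8 at an unadjusted p under 0.05, all upward, and a median of 0.32. The list mean was 0.18, 0.60 and 0.48 in wild type and 0.57, 0.71 and 0.77 in Tg+, within or near the sham range of 0.29 to 0.73 except for wild-type array 1. The median was 0.21 without the weak arrays and 0.15 without wild-type array 1. Esam, an adhesion molecule of endothelial junctions, read -0.02, 0.38 and 0.51 against 0.65, 1.08 and 1.12 (0.66 ± 0.20, adjusted p = 0.126), and Pecam1, their platelet and endothelial adhesion molecule, differed by 0.40 ± 0.14 (adjusted p = 0.184). Klf2, called above, is itself a gene of endothelium, and the part of these markers in its difference was not tested. Smooth muscle and pericyte markers had 13 of 16 higher and a median of 0.19, with Kcnj8, the potassium channel of pericytes, at 0.39 ± 0.12 (adjusted p = 0.151).

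Fibroblast and matrix markers (32 measured, 0 passed) had a median of 0.05. Fbln1, a matrix glycoprotein, differed by 0.81 ± 0.24 (adjusted p = 0.125) and Gsn, the actin-severing protein gelsolin, by 1.00 ± 0.31 (adjusted p = 0.141). Monocyte and macrophage markers (23 measured, 0 passed) had a median of -0.03, which was -0.34 without the weak arrays. Cd14, the lipopolysaccharide co-receptor, differed by 0.33 ± 0.15 (adjusted p = 0.330) and Mpeg1, the macrophage perforin, by 0.12 ± 0.07 (adjusted p = 0.492). Neutrophil markers (8 measured, 0 passed) had a median of -0.23, which was 0.36 without the weak arrays, and a list mean of -0.38, -0.02 and -1.05 in wild type and -1.10, -0.43 and -0.46 in Tg+, all above the sham range of -1.84 to -1.66. S100a9, a calcium-binding protein that fills neutrophils, read -0.83, 0.24 and -2.64 in wild type and -3.10, -0.85 and -1.52 in Tg+ (-0.75 ± 0.69, adjusted p = 0.687), and Ltf, lactoferrin, differed by -0.43 ± 0.34 (adjusted p = 0.619). Without the weak arrays these were 0.82 and 0.28, so the wild-type arrays differed from each other in this list by more than the genotypes did. The wild-type arrays had the same order for skeletal muscle markers (-2.33, -1.72 and -2.64) and for thymus, airway and liver markers (-1.90, -1.38 and -2.60). Their order was another for monocyte and macrophage markers (0.20, -0.09 and 0.44). The part of the Cy5 channel in these levels was not tested.

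Lists not described above had 0 members past the threshold and medians of -0.28 (adipocyte markers) to 0.08 (interferon response genes). Among them were glycolysis, hypoxia, oxidative stress, ER stress, interferon response, circadian clock, cell cycle and autophagy genes. Without the weak arrays their medians ran from -0.71 (epicardial and mesothelial markers) to 0.37 (adipocyte markers). Among those that turned in sign were adipocyte, cell cycle (-0.23 to 0.07), blood and platelet (-0.16 to 0.15) and lymphocyte and mast cell lists (-0.16 to 0.20). Others, such as oxidative stress (-0.19 to -0.04) and ER stress (-0.07 to -0.26), did not turn.

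The genotype difference after I/R was then tested against that in sham hearts above the site. Of 11418 features 2 passed (0.0175%), both downward, with 945 at an unadjusted p under 0.05. They were Sprr2b and Sprr2k, of a family best known from the outer layer of skin. Sprr2b read -0.18, -0.34 and -0.35 in wild-type sham, 1.27, 1.41 and 1.41 in Tg+ sham, -0.25, -0.05 and -0.19 in wild-type I/R and -0.10, 0.11 and 0.15 in Tg+ I/R. Tg+ sham hearts alone were high, and after I/R the genotypes overlapped (0.22 ± 0.10, adjusted p = 0.308). The difference of differences was -1.44 ± 0.13 (adjusted p = 2.00e-05). Sprr2k read 0.93, 1.14 and 1.04 in Tg+ sham and -0.08 to 0.28 on the other 9 arrays above the site, with a difference of differences of -0.93 ± 0.11 (adjusted p = 0.000242). Sprr2 genes are near-identical copies, and a probe may read more than the one it is named for. Both passed in every fit that left out an array, and with slide as a random block. Neither passed with slide as a fixed block, where 0 features did, nor in the fit of probes above background on all 6 I/R arrays, which they did not enter. Signal of each probe stood well above background on 2 of the 3 wild-type I/R arrays and on every array of both sham groups and of Tg+ I/R (3 in each).

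**Figure D5:**
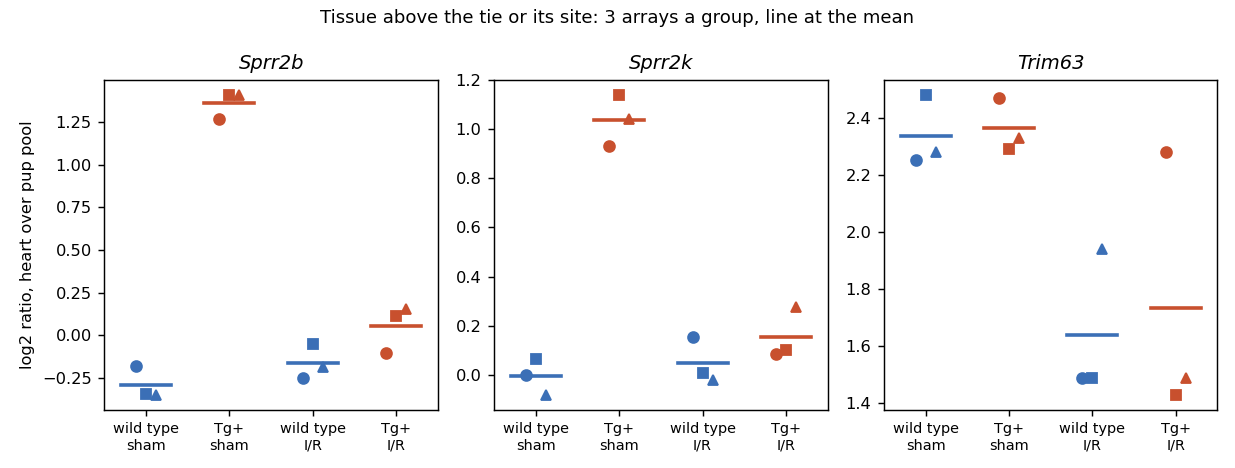
Log2 ratio of heart over pup pool for Sprr2b, Sprr2k and Trim63 on the 12 arrays above the tie or its site; 3 arrays a group, circle, square and triangle for replicates 1, 2 and 3, with a line at the group mean; the y axes do not start at 0. Sprr2b and Sprr2k are high in Tg+ sham (1.27 to 1.41 and 0.93 to 1.14) and low in both I/R groups.

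None of the 75 features called after I/R passed this test, so their difference is not shown to depend on the surgery. For the 24 leading genes named above, the adjusted p of that test ran from 0.164 to 0.577. Wwtr1 had the smallest p among upward differences (0.92 ± 0.19, adjusted p = 0.164), followed by Mcf2l, a guanine nucleotide exchange factor (0.68 ± 0.15, adjusted p = 0.191). Mcf2l read -0.05, -0.23 and -0.12 in wild-type I/R and 0.13, 0.19 and 0.08 in Tg+ I/R, against 0.29 to 0.62 in wild-type sham and -0.15 to 0.11 in Tg+ sham. Its order between the genotypes was opposite in the 2 surgeries.

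The tissue below the tie came from the same hearts, so the pieces are not independent. There, 331 features differed between Tg+ and wild type (2.90%). On arrays 1, 2 and 3 below the tie the share of Cy5 spots well above background was 9.90%, 38.3% and 37.9% in wild type. In Tg+ it was 28.3%, 13.5% and 20.1%. Those under 25% are the other weak arrays of the series, so the calls below carry the same limit. Of the 75 features called above, 11 also passed below in the same direction and 0 in the opposite direction. Among them were Fbxo2 (1.11 below, adjusted p = 0.0223), Ctnnal1 (-0.86, adjusted p = 0.00942), Dtnbp1 (-0.62, adjusted p = 0.0178), Mrpl3 (-0.81, adjusted p = 0.0333) and Maob (-0.63, adjusted p = 0.0400). Others, picked here after their values were seen, lay near 0 below: Wwtr1 -0.02 (adjusted p = 0.918), Akap13 0.01 (adjusted p = 0.977), Rpsa 0.03 (adjusted p = 0.898) and Synpo 0.08 (adjusted p = 0.677). The test of the difference between the pieces called 0 of 11419 features in limma, with 2072 at an unadjusted p under 0.05. That fit ignored that pieces of a heart share an animal. With heart as a random block the count was also 0, with 2335 at an unadjusted p under 0.05. Without that block the test called 4171 without wild-type I/R below array 1 and 303 without Tg+ I/R below array 1. The count thus rests on single arrays of the tissue below.

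The features with the smallest p in that test were Ap1s1, a subunit of the AP-1 clathrin adaptor, and Ddx42, an RNA helicase, in which the genotype difference was more negative above than below. Ap1s1 differed between genotypes by -0.06 ± 0.12 above and 0.87 below (difference -0.93 ± 0.17, adjusted p = 0.166), and Ddx42 by -0.27 ± 0.09 above and 0.44 below (-0.71 ± 0.13, adjusted p = 0.166). In the other direction stood Anks1, an ankyrin-repeat adaptor, at 0.16 ± 0.09 above and -0.45 below (0.61 ± 0.12, adjusted p = 0.180), and Ndufc2, a complex I subunit, at 0.23 ± 0.08 above and -0.32 below (0.55 ± 0.11, adjusted p = 0.180). None of these passed. On a second probe Ddx42 differed by 0.22 above.

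Against the sham range, the levels of the 75 features were mixed. The Tg+ I/R mean lay inside the range of the 6 sham arrays and the wild-type mean outside it for 19 of the 75, the reverse held for 14, and both lay outside for 42. Over all 11419 features these counts were 2063, 1490 and 5083, with both inside for 2783. These counts describe levels only, since the features were chosen for a difference between the same means.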

How the data were processed

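Expression was measured on 24 two-colour Agilent arrays on 7 slides, with 3 arrays in each of 8 groups and replicates that the labels call biological. The deposited scanner files, made with Feature Extraction 9.5.3.1 per the file headers, hold linear intensities of both dyes and a log10 ratio already corrected by that software. The deposited value table holds log2 ratios; neither header nor label states how they were centred.

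Mean spot intensities were background-corrected (normexp, offset 50) and loess-normalised within each array (span 0.3) in limma 3.58.1 under R 4.3.3. No Cy5 spot was saturated. Control and outlier-flagged spots were left out, so that a few genes have fewer than 3 values a group. Of 41174 probes, 15412 were well above background in Cy5 on all arrays of a group. The brightest probe of each symbol gave 11419 features. Symbols came from a RefSeq table by accession for 22951 probes and by an older symbol for 3109, and 15114 kept the name on the array. A linear model with 8 group means (16 residual degrees of freedom) and empirical Bayes moderation was fitted to all arrays, with Benjamini-Hochberg adjustment within each comparison.

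Named genes were Trim63, the 12 calls with the largest difference in each direction, the leading genes of both tests of a difference of differences, and up to 4 members of each list by smallest p (up to 2 where fewer than 2 members passed). Other genes are marked where they appear, and JUN genes were added for their role. Some genes that the rule names are not reported here. The comparison, the lists and this rule were chosen with earlier results of these data known. Alternatives covered background, normalisation, filters, slide, heart, replicate number, array weights and left-out arrays. Same-numbered arrays of the 2 genotypes did not deviate together (r = 0.0559, -0.0170 and -0.277), so the numbers do not pair them.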

Additional observations from a re-analysis of the deposited data

Results flagged for a closer look

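Sprr2b and Sprr2k stood out because their genotype difference after I/R differed from that in sham hearts in a limma test of the difference itself. The difference of differences was -1.44 ± 0.13 for Sprr2b (adjusted p = 2.00e-05) and -0.93 ± 0.11 for Sprr2k (adjusted p = 0.000242). Signal of each probe stood well above background on 2 of the 3 wild-type I/R arrays and on every array of both sham groups and of Tg+ I/R (3 in each). All 3 Tg+ sham hearts were above all 9 other hearts of this tissue in both genes. The Tg+ I/R minus Tg+ sham difference was -1.31 for Sprr2b and -0.88 for Sprr2k, and the wild-type differences were 0.13 and 0.05.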

How the results depend on the processing

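The 75 calls between Tg+ and wild type became 13 with the Agilent log ratio and with the value table, 11 with Cy5 alone, 43 with no filter on dim probes, 20 with the mean of all probes, 0 with only the 6 arrays or only the 12 I/R arrays, 3160 with array weights (4.28 for wild-type array 1, 0.253 and 0.246 for arrays 2 and 3), 11 without the weak arrays, and 0 to 504 when 1 array was left out. With the replicate block there were 53, of which 52 were among the 75. Other settings gave 64 to 96, of which 88 without all 5 weak arrays of the series shared 14 with the 75. The 2 calls against sham became 0 with the Agilent log ratio, the value table, slide as a fixed block, or only probes above background on all 6 arrays, 2789 with array weights, 6 without the weak arrays, 49 without all 5, and 2 to 9 when 1 array was left out. The 0 calls between pieces became 8 with the Agilent log ratio and the value table, 5650 with array weights, 6 without the weak arrays, 91 without all 5, and 0 to 4171 when 1 array was left out. The cause was not tested.

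The Trim63 difference turned to -0.15 with the Agilent log ratio and the value table, -0.09 with slide as a fixed block and -0.20 without the weak arrays or all 5, and ran from -0.18 to 0.24 when 1 array was left out. Turned in sign without the weak arrays, and equally without all 5, were Mpc1 (0.08), Pam (-0.69), Nppa (-0.18), Ltf (0.28), S100a9 (0.82), Junb (-0.34) and Jund (0.16). Junb was also -0.03 with the Agilent log ratio and the value table, and ran from -0.20 (without wild-type array 1) to 0.30 when 1 array was left out, with -0.12 without Tg+ array 2. Jund was 0.13 with those 2 ratios, 0.14 with array weights, and ran from -0.22 to 0.14 (without Tg+ array 1) when 1 array was left out, with 0.09 without wild-type array 2. Ap1s1 was 0.01 with those ratios and array weights and 0.03 with Cy5 alone. Myl2 was 0.16 with the value table and Ptx3 0.07 with array weights. The 47 named genes that were called lost the call in 598 of 1076 values under an alternative (55.6%). The 53 that were not called gained one in 68 of 1203. Of 552 medians of the 24 described lists under an alternative, 59 moved by more than the spread between arrays and 63, in 14 lists, turned in sign. The Agilent log ratio and the value table moved the median of all features from -0.02 to 0.10.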
